A study of Mus musculus with 9 samples.

Results

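The mitosis and spindle genes described here are 40 named mouse genes whose products drive entry into mitosis, build the spindle, attach chromosomes to it, monitor that attachment, start anaphase or divide the cell. They were chosen as a list of gene symbols, not by a measured value, and each symbol was matched to a gene ID. All 40 were among the 55401 genes counted in the 7-library table, and all 40 were among the 15331 genes that passed the filter on low counts. Of the 40, 13 were also among the 11512 genes held for the wild-type clones.

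Total RNA was sequenced from XEN (extra-embryonic endoderm stem) cells of the mouse, in a line labelled female whose parents were Mus musculus molossinus and Mus musculus. The groups were DXp, labelled as a paternal Xist deletion (n = 2), DXp_DXm, labelled as a homozygous Xist deletion (n = 2), WT_clone, wild-type clones (n = 2), and WT_EV, wild type (n = 3). The study places the deleted segment upstream of Xist, and its ends are not known from the labels. Both DXp libraries carry D1 in their titles and both DXp_DXm libraries D3, so an effect of a single line, if that is what these mark, cannot be told apart from genotype. The 2 libraries of each deletion are stated to be biological replicates. The labels do not tie the WT_EV libraries to separate cultures or explain EV, and p-values reflect the spread among the libraries at hand, which may be technical.

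Cyclin-dependent kinase 1, bound to B-type cyclins, drives cells into mitosis, and the Aurora and Polo-like kinases act beside it to separate the spindle poles and correct faulty attachments. Kinetochores are protein assemblies on the centromere that hold spindle microtubules, and a checkpoint that senses empty kinetochores restrains the anaphase-promoting complex. When that restraint ends, securin and the B-type cyclins are degraded, separase opens the rings that hold sister chromatids together, and the cell divides. Most of these genes are transcribed mainly in G2 and M phase. XEN cells are a dividing stem cell line.

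Total counts were 24586135 and 29335803 in DXp, 25589912 and 27334893 in DXp_DXm, and 14352719 to 19833044 in WT_EV. The libraries did not all hold the same kinds of RNA. Rn7sk, an abundant RNA with no poly(A) tail, averaged 0.154 CPM in DXp and 0.179 CPM in DXp_DXm, against 10664 CPM in WT_EV (levels are TMM-scaled CPM throughout). A smooth function of the exonic GC content and length of a gene accounted for 46.5% of the variance of log2 changes over all genes tested in DXp against WT_EV, and for 45.3% in DXp_DXm against WT_EV. Between the deletions it accounted for 8.01%. Library content and genotype cannot be told apart in the comparisons with WT_EV, so each of those is given in 2 forms. The first is from the counts as deposited. The second has an offset for each library, fitted to its smooth dependence on GC content and length. The offsets left a part of that dependence in place. Xist was higher than in WT_EV in both deletions in both forms, at log2 changes of 3.94 and 2.03 in DXp and of 2.75 and 1.31 in DXp_DXm. It was detected in every library of both deletions (5460 CPM or more), so its level does not mark the deleted segment as missing. The 10 XEN markers, all detected in every group, summed to 7425 to 17110 CPM in DXp and 11220 to 14150 CPM in DXp_DXm, against 21320 to 28880 CPM in WT_EV. Lama1 and Col4a1 held most of the WT_EV sum, at means of 9805 and 7809 CPM. Col4a1 was at 0 CPM in DXp replicate 1 and at 1983 CPM in DXp replicate 2. In DXp_DXm it was at 3294 and 911.5 CPM, and in WT_EV at 5190, 12020 and 6214 CPM. By calls as deposited, 2 of the 10 were higher and 3 lower in DXp than in WT_EV, and 2 higher and 4 lower in DXp_DXm. With offsets 6 were higher in DXp and 2 in DXp_DXm, none was lower in either, and the median log2 changes were 0.82 and 0.34. Markers of embryonic stem cells, trophoblast and fibroblasts summed to at most 0.844, 1.85 and 0.0600 CPM in any library, with 2 or more of each list of 6 at 0 in every group. The part of these marker differences in the results below was not tested.

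Together the 40 genes held 10080 to 13750 CPM in DXp and 9901 to 11730 CPM in DXp_DXm, against 4375 to 4647 CPM in WT_EV. From the counts as deposited, 22 were higher and 14 lower in DXp than in WT_EV, and 4 were not called (edgeR quasi-likelihood test, Benjamini-Hochberg adjusted p under 0.05). Of all genes tested, 72.3% were called in that comparison, 32.2% as higher and 40.1% as lower, so a call alone does not set these genes apart. Changes are on the log2 scale throughout, also where a gene is said to be higher or lower by a value. The median change of the 40 genes was 1.12, against -0.35 over all genes. In DXp_DXm against WT_EV, 23 were higher and 11 lower as deposited, where 66.8% of all genes were called (30.9% higher and 36% lower), with medians of 1.12 for the 40 genes and -0.15 for all. In these bulk samples a different share of cells in mitosis and a different amount of RNA of these genes per cell cannot be told apart.

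With the GC and length offsets, 11 genes were higher, 11 lower and 18 not called in DXp against WT_EV, where 50.8% of all genes were called (25.5% higher and 25.3% lower). The median log2 change of the 40 was 0.094, against -0.051 over all genes. In DXp_DXm against WT_EV, 13 were higher and 6 lower with offsets, and 42.8% of all genes were called (22.3% higher and 20.5% lower), with medians of 0.32 for the 40 and 0.044 for all. In CPM, all DXp libraries lay above all WT_EV libraries in 23 of the 40 genes (36.8% of all genes) and below them in 15 (45.2%), and after offsets in 14 (34.3%) and 18 (36.9%). For DXp_DXm they lay above in 25 (36.4%) and below in 11 (41.8%), and after offsets in 22 (33%) and 10 (32.6%). The counts of calls with offsets depend on the fit. More of the 40 were higher in both deletions without the filter on low counts, and in DXp_DXm with offsets for GC content alone. The counts also rest in part on single libraries. In DXp, 6 were higher without DXp replicate 1 and 7 were lower without DXp replicate 2. In DXp_DXm, 6 were higher and 3 lower without DXp_DXm replicate 2.

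**Figure D1:**
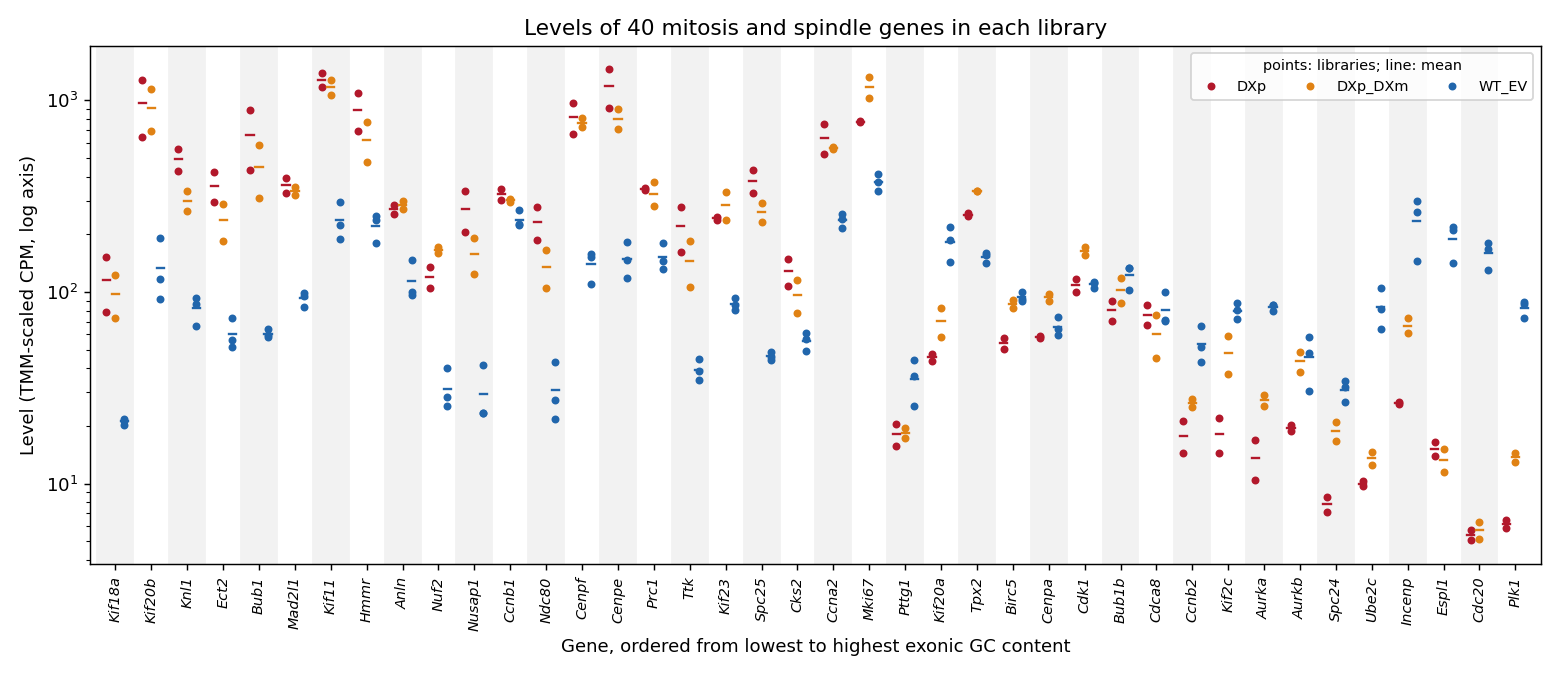
Level of each of the 40 mitosis and spindle genes in each library, as TMM-scaled CPM on a log axis, with genes ordered from the lowest exonic GC content on the left to the highest on the right. Points are libraries and lines group means for DXp and DXp_DXm (n = 2 each) and WT_EV (n = 3). For the genes at the left both deletions lie above WT_EV, and for Espl1, Cdc20 and Plk1 at the right both lie below it.

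As deposited, the direction of change went with base composition. The 40 genes had a median exonic GC content of 45.55%, below the 48.38% of all genes tested, and ranged from 37.3% in Kif18a to 56.0% in Plk1. As deposited, all 9 genes under 42% GC were higher in both deletions, at log2 changes of 1.24 to 3.45 in DXp and 1.32 to 2.89 in DXp_DXm. All 3 genes at 54% GC or more were lower in both. Over the 2460 tested genes under 42% GC, 1703 were higher and 242 lower in DXp against WT_EV. Over the 3346 at 54% or more, 97 were higher and 2807 lower. Over the 40 genes the Pearson correlation of GC content with the log2 change was -0.92 in DXp and -0.88 in DXp_DXm as deposited (Spearman -0.87 and -0.85). With offsets it was -0.59 in DXp and -0.54 in DXp_DXm, against -0.061 and -0.059 over all genes. A part of the dependence stayed over all genes in DXp. With offsets the median of those under 42% GC was 0.27 (769 higher and 507 lower). The median of those at 54% or more was -0.42 (672 higher and 915 lower). These correlations are across genes of the same libraries, which are not independent, and carry no p. The SD of the 40 changes was 2.30 as deposited and 1.04 with offsets in DXp, on the log2 scale.

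Coding sequences from genes at both ends of this range are shown as examples. The offsets use the GC content of all exon bases of a gene and its exon length, not these stretches. Each run below is 90 bases of coding exon in GRCm38 (GENCODE M21 transcripts), 5′ to 3′ on the gene's strand, with G and C in capitals. The first 3 are the listed genes of lowest exonic GC content and the last 3 those of highest. Kif18a is at chr2:109333417-109333506 (plus strand, exon 14), Kif20b at chr19:34950313-34950402 (plus strand, exon 19) and Knl1 at chr2:119070326-119070415 (plus strand, exon 7). Espl1 is at chr15:102298667-102298756 (plus strand, exon 3), Cdc20 at chr4:118435542-118435631 (minus strand, exon 7) and Plk1 at chr7:122159702-122159791 (plus strand, exon 1).
Kif18a: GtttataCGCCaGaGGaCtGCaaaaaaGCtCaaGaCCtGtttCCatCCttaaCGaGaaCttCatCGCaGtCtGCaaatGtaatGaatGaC
Kif20b: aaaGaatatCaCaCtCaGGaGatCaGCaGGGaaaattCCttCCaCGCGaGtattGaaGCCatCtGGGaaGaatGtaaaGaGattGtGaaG
Knl1: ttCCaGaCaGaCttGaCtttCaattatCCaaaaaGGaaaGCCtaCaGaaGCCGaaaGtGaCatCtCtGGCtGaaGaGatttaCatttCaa
Espl1: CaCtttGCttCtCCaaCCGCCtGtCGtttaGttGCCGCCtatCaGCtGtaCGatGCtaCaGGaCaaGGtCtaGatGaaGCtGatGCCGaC
Cdc20: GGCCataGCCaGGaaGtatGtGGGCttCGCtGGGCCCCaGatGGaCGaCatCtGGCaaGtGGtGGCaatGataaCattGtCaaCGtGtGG
Plk1: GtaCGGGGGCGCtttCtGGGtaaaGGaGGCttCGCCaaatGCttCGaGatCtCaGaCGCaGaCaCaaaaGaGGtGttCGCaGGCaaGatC
The stretches hold 42.2%, 42.2% and 38.9% G and C in Kif18a, Kif20b and Knl1, and 52.2%, 55.6% and 54.4% in Espl1, Cdc20 and Plk1. The offset difference between DXp and WT_EV was 2.21 for Kif18a, -3.14 for Plk1 and -3.03 for Cdc20 on the log2 scale, and it is taken off the change as deposited.

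**Figure D2:**
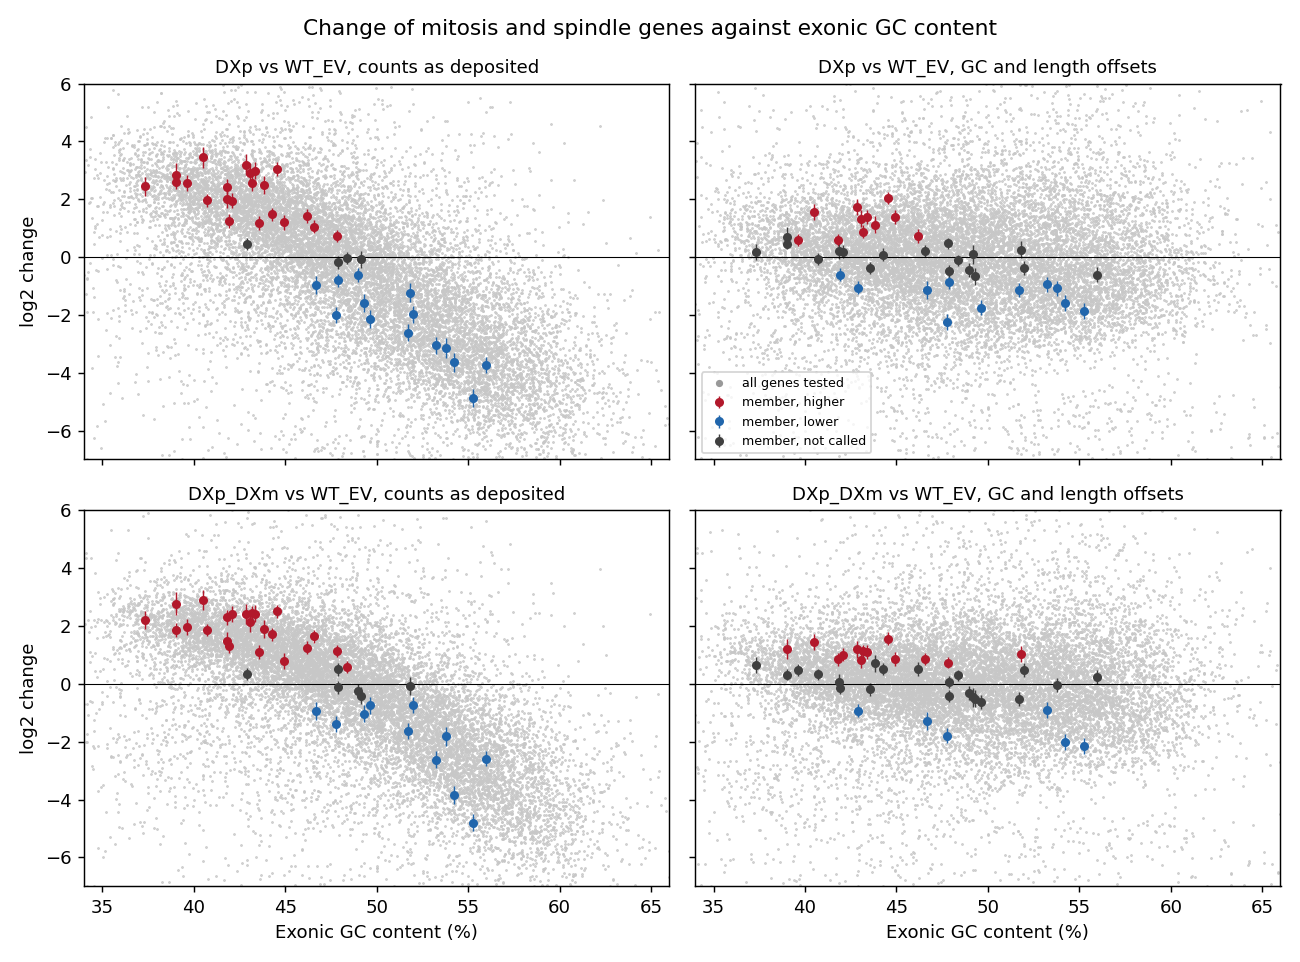
Log2 change against exonic GC content (%) in DXp and DXp_DXm, each over WT_EV, from counts as deposited (left) and with GC and length offsets (right). Gray points are all genes tested, and colored points the 40 mitosis and spindle genes by call, with bars of 1 SE. Genes beyond the axis limits are not drawn. The downward slope of the gray points on the left is much weaker on the right, where the 40 genes spread from -2.23 to 2.04 in DXp.

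The genes that start anaphase and lead out of mitosis were lower in both deletions in both forms, 4 of 4, where 40.1% of all genes were lower in DXp and 36% in DXp_DXm as deposited, and 25.3% and 20.5% with offsets. Cdc20 and Espl1 are in the class of 54% GC or more, in which 2807 of 3346 genes were lower in DXp as deposited and 915 with offsets. Cdc20, the activator of the anaphase-promoting complex, was at 5.73 and 5.06 CPM in DXp and 6.30 and 5.15 CPM in DXp_DXm, against 181, 130 and 167 CPM in WT_EV. All deletion libraries lay far below the lowest WT_EV library. The log2 change was -4.89 in DXp (SE 0.31, adjusted p 4.46e-06) and -4.80 in DXp_DXm as deposited. With offsets it was -1.86 (SE 0.27, 95% interval -2.46 to -1.25, adjusted p 0.000573) in DXp and -2.14 (interval -2.75 to -1.53, adjusted p 0.000516) in DXp_DXm, well under the size as deposited.

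Espl1 encodes separase, the protease that cleaves cohesin. It was at 16.5 and 13.9 CPM in DXp and 11.5 and 15.1 CPM in DXp_DXm, against 211, 218 and 141 CPM in WT_EV, with no overlap. With offsets its log2 change was -1.59 (interval -2.19 to -0.98, adjusted p 0.00124) in DXp and -1.997 (interval -2.61 to -1.38, adjusted p 0.000699) in DXp_DXm. Ube2c, the E2 enzyme that works with the anaphase-promoting complex, was at 10.3 and 9.69 CPM in DXp and 14.6 and 12.5 CPM in DXp_DXm, against 104, 64.4 and 81.1 CPM in WT_EV. With offsets its log2 changes were -0.94 in DXp and -0.90 in DXp_DXm (adjusted p 0.0152 and 0.0211). Pttg1 encodes securin, the inhibitor of separase. It stood at 15.7 and 20.5 CPM in DXp and 19.6 and 17.2 CPM in DXp_DXm, against 43.9, 36.3 and 25.3 CPM in WT_EV. Its log2 changes differed little between the forms, at -0.96 as deposited and -1.13 with offsets in DXp, and -0.93 and -1.28 in DXp_DXm. The calls of Cdc20 and Espl1 held under every alternative run. Those of Ube2c with offsets were lost when DXp replicate 2 or WT_EV replicate 1 was left out of the DXp comparison, at log2 changes of -0.83 and -0.82. Those of Pttg1 in DXp were lost in both forms without DXp replicate 1 (-0.66 as deposited and -0.99 with offsets) or WT_EV replicate 1 (-0.79 and -0.95). In DXp_DXm, Pttg1 as deposited was lost without either DXp_DXm replicate, WT_EV replicate 1 or WT_EV replicate 2 (-0.76 to -0.95) and with offsets without DXp_DXm replicate 2 (-1.21). Ube2c with offsets was lost in DXp_DXm without either DXp_DXm replicate or WT_EV replicate 1 (-0.78 to -0.99).

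The promoters of these genes are shown because many G2 and M phase genes share a pair of elements there, the cell cycle genes homology region (CHR) and the CCAAT box. RefSeq windows (GRCm38.p6) were at hand for 34 of the 40 genes, 36 windows in all. The 250 bases before the start were searched on both strands for the CHR as TTTGAA or TTCGAA and for the CCAAT box as CCAAT. The CHR letters were in 12 of 36 windows (33.3%), against 17.1% of all 32851 windows in the table. The CCAAT letters were in 25 (69.4%), against 33.8% of all, and both were in 11 (30.6%), against 6.0%. By gene, 19.6% of all genes in the table had the CHR letters and 37.5% the CCAAT letters. By calls with offsets in DXp against WT_EV, the CHR letters were in 4 of 9 genes that were lower, 2 of 10 that were higher and 5 of 15 not called. In DXp_DXm they were in 3 of 5 lower, 2 of 11 higher and 6 of 18 not called. The CCAAT letters were in 5 of 9 lower, 8 of 10 higher and 10 of 15 not called in DXp, and in 4 of 5 lower, 7 of 11 higher and 12 of 18 not called in DXp_DXm, so the order of lower and higher genes for CCAAT differed between the deletions. The runs below are the 120 bases before the RefSeq start, 5′ to 3′ on the gene's strand, with matches in capitals. They are at chr4:118437344-118437463 (minus strand), chr15:102296173-102296292 (plus strand) and chr7:122159315-122159434 (plus strand).
Cdc20: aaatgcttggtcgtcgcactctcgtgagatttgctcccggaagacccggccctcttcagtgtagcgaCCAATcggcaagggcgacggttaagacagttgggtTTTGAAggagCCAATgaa
Espl1: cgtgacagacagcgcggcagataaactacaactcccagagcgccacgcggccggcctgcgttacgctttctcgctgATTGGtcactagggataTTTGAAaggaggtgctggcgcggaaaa
Plk1: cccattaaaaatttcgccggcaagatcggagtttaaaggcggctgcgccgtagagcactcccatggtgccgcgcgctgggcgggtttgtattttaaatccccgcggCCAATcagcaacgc
Cdc20 has TTTGAA starting 18 bases before the start and CCAAT at 53 and 8 bases before it. Espl1 has TTTGAA at 27 bases and the CCAAT box on the other strand, written ATTGG, at 44 bases. Plk1 has CCAAT at 14 bases and no CHR letters in this stretch. The same stretch of Kif18a, Kif20b and Knl1 held no match. A match is a description of the letters and does not show that a factor binds.

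Of the 3 mitotic kinases, Plk1 and Aurka were lower in both deletions as deposited, and of these only Aurka stayed called with offsets, in DXp. Plk1, the Polo-like kinase of mitotic entry and spindle poles, was at 6.44 and 5.87 CPM in DXp and 14.5 and 13.0 CPM in DXp_DXm, against 86.1, 72.9 and 88.4 CPM in WT_EV. Its log2 change of -3.74 in DXp and -2.59 in DXp_DXm became -0.61 (interval -1.19 to -0.03, adjusted p 0.0740) and 0.23 (interval -0.33 to 0.79) with offsets. Aurka, the kinase of spindle poles, was at 10.4 and 16.8 CPM in DXp and 25.4 and 29.2 CPM in DXp_DXm, against 85.9, 85.5 and 79.6 CPM in WT_EV. With offsets its log2 change was -1.13 (adjusted p 0.00424) in DXp, a call kept under every alternative run, and -0.51 (adjusted p 0.108) in DXp_DXm. Aurkb, the kinase of the chromosomal passenger complex, was at 18.8 and 20.3 CPM in DXp and 38.2 and 48.9 CPM in DXp_DXm, against 58.5, 48.1 and 30.4 CPM in WT_EV. It was lower in DXp as deposited (-1.23, lost without DXp replicate 1 at -1.05) and not called with offsets (0.26). In DXp_DXm it was not called as deposited (-0.07) and was higher with offsets (1.03, adjusted p 0.0164). That last call was lost without DXp_DXm replicate 2 (0.74) or with the replicate number as a block.

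The 3 other members of the passenger complex were Incenp, its scaffold, Birc5, which encodes survivin, and Cdca8, which encodes borealin. Incenp was at 26.0 and 26.8 CPM in DXp and 72.9 and 60.8 CPM in DXp_DXm, against 262, 298 and 146 CPM in WT_EV. After offsets it was lower in DXp (-1.07, adjusted p 0.00756), a call lost without DXp replicate 2 (-1.01), and it was at -0.04 (interval -0.60 to 0.52) in DXp_DXm. Birc5 was at 57.6 and 50.2 CPM in DXp and 91.2 and 82.1 CPM in DXp_DXm, against 92.1, 89.9 and 99.9 CPM in WT_EV. It was lower in DXp in both forms, at -0.80 and -0.88, and both calls were lost without DXp replicate 2 (-0.69 and -0.66). Its direction with offsets differed when the GC content and length behind the offsets were taken from 1 transcript per gene in place of all exons. It was then higher in both deletions, at 0.77 in DXp and 0.95 in DXp_DXm. Cdca8 was called in neither deletion in either form. With GC content and length of 1 transcript, Cdca8 was higher in DXp_DXm (0.91), against -0.47 from all exons.

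Of the 8 kinetochore genes, 6 were higher and 1 lower in each deletion as deposited. With offsets 4 were higher in DXp, where 25.5% of all genes were, and 5 in DXp_DXm, where 22.3% were, with none lower and the others not called. Of the 8, 6 are in the class of 42% to 48% GC, in which 2495 of 4871 genes were higher in DXp as deposited and 1250 with offsets. Spc25, a subunit of the Ndc80 complex that grips microtubules, was at 432 and 330 CPM in DXp and 232 and 292 CPM in DXp_DXm, against 45.7, 48.6 and 44.1 CPM in WT_EV. The lowest deletion library was above all 3 WT_EV libraries. The log2 change of Spc25 was 3.04 as deposited and 2.04 with offsets in DXp (interval 1.56 to 2.52, adjusted p 0.000147), and 2.51 and 1.57 in DXp_DXm (interval 1.09 to 2.05, adjusted p 0.000692). No member had a larger increase with offsets in DXp. Its partners in the complex did not all follow. Ndc80 was at 278 and 187 CPM in DXp and 105 and 167 CPM in DXp_DXm, against 21.7, 27.5 and 43.0 CPM in WT_EV, and was called with offsets at 1.33 in DXp and 0.83 in DXp_DXm. The second of these was lost without DXp_DXm replicate 2 (0.53), WT_EV replicate 1 (0.67) or WT_EV replicate 2 (0.73). It was also lost with protein-coding genes alone.

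Nuf2, the partner of Ndc80 at the microtubule end, was at 136 and 105 CPM in DXp and 161 and 171 CPM in DXp_DXm, against 25.3, 28.2 and 39.9 CPM in WT_EV. It was, with offsets, called in DXp_DXm (1.01, adjusted p 0.00517), where it held under every alternative run, and not in DXp (0.19, interval -0.30 to 0.68). Spc24, the partner of Spc25, was at 7.11 and 8.53 CPM in DXp and 20.98 and 16.7 CPM in DXp_DXm, against 31.7, 34.3 and 26.8 CPM in WT_EV. It was lower as deposited (-1.98 in DXp and -0.72 in DXp_DXm) and not called with offsets (-0.37 and 0.49). The DXp_DXm call was lost without DXp replicate 1, either DXp_DXm replicate, WT_EV replicate 1 or WT_EV replicate 2 (-0.55 to -0.81). That call of Spc24 was also lost without the filter on low counts or with the replicate number as a block. A stretch of 151 bases of its exons matches Malat1, a far more abundant RNA, at 98.01% identity, so its counts are uncertain. Its exonic GC content is 52.0%, against 42.1% to 44.5% in the 3 other subunits.

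Cenpe, a kinetochore motor that carries chromosomes to the spindle equator, was at 1450 and 916 CPM in DXp and 706 and 901 CPM in DXp_DXm, against 118, 147 and 181 CPM in WT_EV. With offsets it was higher by 1.39 in DXp (adjusted p 0.00144) and 1.12 in DXp_DXm (adjusted p 0.00568), and both calls held under every alternative run. Cenpf, a large protein of the outer kinetochore, was higher with offsets by 0.88 in DXp and 1.13 in DXp_DXm. The DXp call was lost without DXp replicate 1 (0.56) or with 1 transcript per gene. Knl1, the scaffold on which checkpoint proteins assemble, was higher by 2.59 in DXp and 1.87 in DXp_DXm as deposited and was not called with offsets (0.45 and 0.31). Cenpa, the histone H3 variant of the centromere, was not called in either deletion in either form (-0.48 in DXp and 0.07 in DXp_DXm with offsets).

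**Figure D3:**
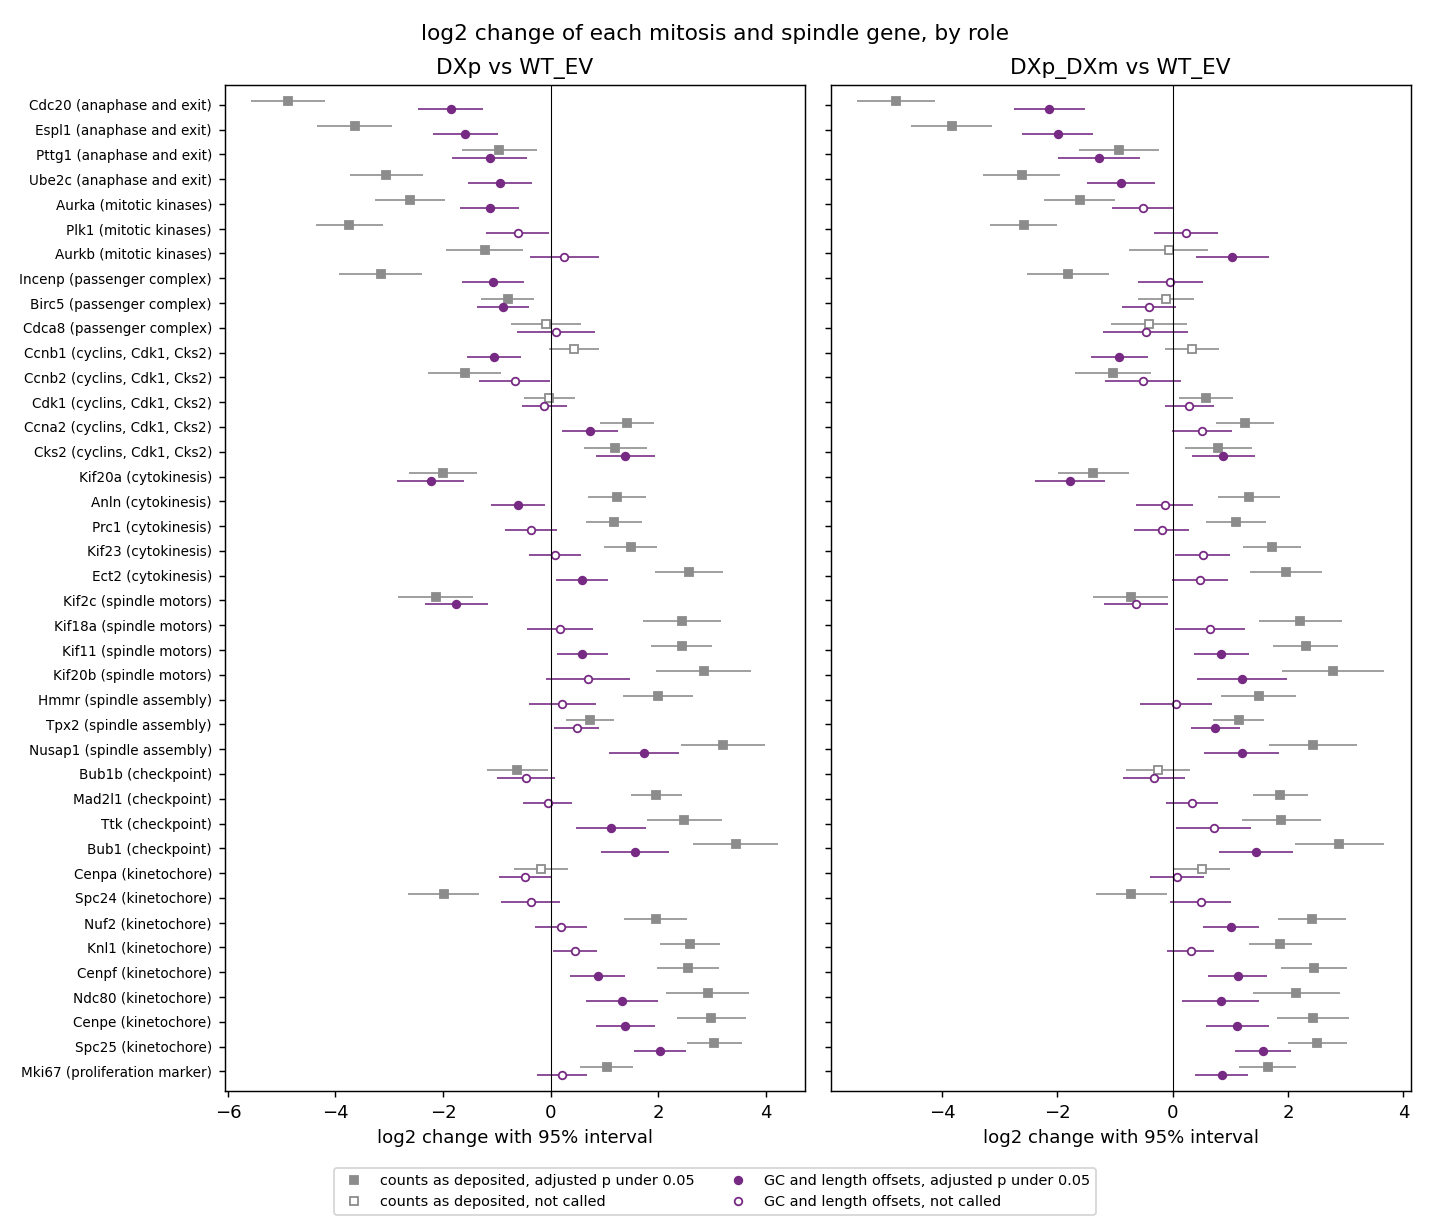
Log2 change of each of the 40 genes, grouped by role, in DXp and in DXp_DXm, each over WT_EV. Gray squares are from counts as deposited and purple circles with GC and length offsets, filled where the adjusted p was under 0.05, with 95% intervals as bars. The 4 genes of anaphase and exit lie left of 0 in both forms, and Bub1, Cenpe, Spc25 and Nusap1 lie right of it in both.

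Among the 4 checkpoint genes, Bub1, the kinase that marks unattached kinetochores, was at 886 and 434 CPM in DXp and 311 and 588 CPM in DXp_DXm, against 57.9, 59.8 and 64.1 CPM in WT_EV. The libraries of each deletion differed from each other by more than the WT_EV libraries did, and none overlapped with WT_EV. With offsets the log2 change of Bub1 was 1.57 in DXp (95% interval 0.93 to 2.20, adjusted p 0.00172) and 1.44 in DXp_DXm (interval 0.81 to 2.08, adjusted p 0.00347), and both calls held under every alternative run. Ttk, the kinase also called Mps1, was at 278 and 162 CPM in DXp and 106 and 184 CPM in DXp_DXm, against 34.7, 38.5 and 44.5 CPM in WT_EV. After offsets it was called in DXp (1.12, adjusted p 0.00969) and not in DXp_DXm (0.71, adjusted p 0.0730). The DXp call was lost without DXp replicate 1 (0.74). Mad2l1, the inhibitor of Cdc20, was higher by 1.96 in DXp and 1.87 in DXp_DXm as deposited, with values of -0.057 and 0.33 and no call with offsets. Bub1b, which encodes the checkpoint protein BubR1, was lower in DXp as deposited (-0.62, adjusted p 0.0484) and was not called with offsets or in DXp_DXm against WT_EV. That call was lost in 9 of the alternatives run, among them without DXp replicate 1 (-0.34).

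Of the spindle motors Kif11, Kif18a and Kif20b were higher as deposited and Kif2c lower in both deletions. Kif11, the motor that pushes the spindle poles apart, was at 1397 and 1168 CPM in DXp and 1063 and 1276 CPM in DXp_DXm, against 190, 296 and 225 CPM in WT_EV. With offsets the difference was 0.59 in DXp (adjusted p 0.0431) and 0.85 in DXp_DXm (adjusted p 0.0116). The DXp call was lost without either DXp replicate, WT_EV replicate 1 or WT_EV replicate 3 (0.48 to 0.69). It was also lost with protein-coding genes alone, 1 transcript per gene or either number in the titles as a block. The DXp_DXm call was lost without DXp_DXm replicate 2 (0.81) or with protein-coding genes alone. Kif18a, which dampens chromosome movement at the equator, was higher by 2.45 in DXp and 2.21 in DXp_DXm as deposited and was not called with offsets (0.18 and 0.65). Kif20b was called with offsets in DXp_DXm (1.20) and not in DXp (0.69). The first call was lost without DXp_DXm replicate 2 (0.97) or WT_EV replicate 1 (1.21), and with protein-coding genes alone. Kif2c, a kinesin that takes microtubules apart, was at 14.4 and 22.0 CPM in DXp and 58.9 and 37.5 CPM in DXp_DXm, against 87.3, 80.5 and 72.2 CPM in WT_EV. The log2 change of Kif2c with offsets was -1.75 (interval -2.33 to -1.17, adjusted p 0.000619) in DXp, kept under every alternative run, and -0.63 (adjusted p 0.0623) in DXp_DXm. As deposited the DXp_DXm call (-0.73) was lost without DXp_DXm replicate 2 (-0.43), WT_EV replicate 1 (-0.69) or WT_EV replicate 2 (-0.75). It was also lost with the replicate number as a block.

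The spindle assembly factors Nusap1, Tpx2 and Hmmr were all higher in both deletions as deposited. Nusap1, which bundles spindle microtubules, was at 335 and 205 CPM in DXp and 125 and 192 CPM in DXp_DXm, against 23.3, 23.4 and 41.5 CPM in WT_EV. It was, with offsets, higher by 1.73 in DXp (adjusted p 0.00118), kept under every alternative run. In DXp_DXm it was higher by 1.20 (adjusted p 0.00943). That call of Nusap1 was lost without DXp_DXm replicate 2 (0.93) or with protein-coding genes alone. Of its 4059 exon bases, 172 overlap Oip5 on the other strand. Tpx2, the activator of the Aurka kinase, was called with offsets in DXp_DXm (0.74, adjusted p 0.0122) and not in DXp (0.48, adjusted p 0.0571). The DXp_DXm call of Tpx2 was lost without DXp_DXm replicate 2 (0.68) or WT_EV replicate 2 (0.65), and with 1 transcript per gene. Hmmr, a microtubule-binding protein of the spindle, was higher by 2.004 in DXp and 1.49 in DXp_DXm as deposited, and at 0.22 and 0.05 with offsets, neither called.

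Among the 5 cytokinesis genes, Kif20a stood apart from the 4 others in the direction of its change as deposited. Kif20a, a motor of the central spindle, was at 47.7 and 43.8 CPM in DXp and 82.9 and 58.1 CPM in DXp_DXm, against 218, 188 and 143 CPM in WT_EV. With offsets it was lower by a log2 change of -2.23 (interval -2.85 to -1.61, adjusted p 0.000290) in DXp and -1.79 (interval -2.40 to -1.18, adjusted p 0.00108) in DXp_DXm, and both calls held under every alternative run. Its GC content of 47.8% is near the median of all genes tested, and the offsets moved its log2 change by 0.23 in DXp. Of its 4338 exon bases 1271 (29.3%) overlap Cdc23 on the other strand. The strand setting of the counting is not given, so reads of the overlapping part cannot be assigned with certainty. In all, 9 of the 40 genes overlap a gene on the other strand, by 0.11% to 29.3% of their exon bases, and Tnnc2, which overlaps Ube2c, had 0 counts in every library. Ect2, the activator of RhoA at the cleavage site, was higher by 2.57 in DXp and 1.97 in DXp_DXm as deposited. After offsets it was called in DXp (0.58, adjusted p 0.0454) and not in DXp_DXm (0.47). The first call was lost without either DXp replicate, WT_EV replicate 1 or WT_EV replicate 2 (0.49 to 0.74). It was also lost with protein-coding genes alone, 1 transcript per gene or the replicate number as a block. Over all alternatives the change ran from 0.069 to 1.41.

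Anln, which encodes the contractile ring protein anillin, changed direction between the forms. It was at 257 and 284 CPM in DXp, against 101, 96.8 and 146 CPM in WT_EV, and with the offsets applied at 130 and 158 CPM in DXp, against 218, 182 and 259 CPM in WT_EV. The log2 change was 1.24 (adjusted p 0.00109) as deposited and -0.61 (adjusted p 0.0437) with offsets. The second call was lost in every leave-one-out fit except that without WT_EV replicate 2. It was also lost without the filter on low counts and with offsets for GC content alone. The same held for 1 transcript per gene and for either number in the titles as a block. Prc1, which crosslinks the central spindle, and Kif23, its partner motor in the midzone, were higher in both deletions as deposited (1.10 to 1.72) and called in neither with offsets (-0.37 to 0.52).

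Of the cyclins and their partners, Ccnb1, the main mitotic B-type cyclin, was at 346 and 302 CPM in DXp and 307 and 295 CPM in DXp_DXm, against 268, 225 and 223 CPM in WT_EV. It was not called as deposited (0.44 in DXp and 0.33 in DXp_DXm) and was lower with offsets, at -1.05 (adjusted p 0.00360) and -0.92 (adjusted p 0.00857). The DXp_DXm call was lost without DXp_DXm replicate 2 (-0.83), and neither held without the filter on low counts (-0.40 and -0.41). Ccnb1 has processed pseudogenes that match it over long stretches, Ccnb1-ps and Gm12856, with at most 379 counts in a library, against at least 3717 for Ccnb1. Ccnb2 was lower as deposited in both deletions (-1.59 and -1.03, the second lost without DXp_DXm replicate 1 at -0.88) and was not called with offsets. Ccna2, the A-type cyclin of S and G2 phase, was at 749 and 526 CPM in DXp and 558 and 574 CPM in DXp_DXm, against 256, 215 and 241 CPM in WT_EV. It was, with offsets, called in DXp (0.73, adjusted p 0.0249) and not in DXp_DXm (0.52). The DXp call was lost without DXp replicate 1 (0.41) or WT_EV replicate 2 (0.62). It was also lost with protein-coding genes alone, 1 transcript per gene or the replicate number as a block.

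Cdk1, the kinase of these cyclins, differed little between DXp and WT_EV. It was at 99.5 and 117 CPM in DXp and 171 and 156 CPM in DXp_DXm, against 113, 105 and 111 CPM in WT_EV. It was not called in DXp (-0.02 as deposited, interval -0.49 to 0.45, and -0.11 with offsets, interval -0.54 to 0.31). In DXp_DXm it was higher as deposited (0.58, adjusted p 0.0327) and not called with offsets (0.29). The first call was lost when any 1 DXp_DXm or WT_EV library was left out (0.53 to 0.66). It was also lost without the filter on low counts or with the replicate number as a block. Cks2, a small subunit that binds Cdk1, was at 150 and 107 CPM in DXp and 77.8 and 115 CPM in DXp_DXm, against 57.0, 49.2 and 60.8 CPM in WT_EV, and was higher in both forms in both deletions. The DXp_DXm calls were lost without DXp_DXm replicate 2 (0.50 as deposited and 0.53 with offsets), WT_EV replicate 1 (0.79 and 0.89) or WT_EV replicate 2 (0.69 and 0.73). With offsets the DXp_DXm call of Cks2 was also lost without the filter on low counts. Its exon length of 692 bases is the shortest of the 40, and with an offset for GC content alone it was not called (0.35 in DXp and -0.00043 in DXp_DXm). Mki67, which encodes the proliferation marker Ki-67, was at 772 and 778 CPM in DXp and 1331 and 1027 CPM in DXp_DXm, against 377, 410 and 339 CPM in WT_EV. With offsets it was higher in DXp_DXm (0.85, adjusted p 0.00932) and not called in DXp (0.21). The DXp_DXm call was lost without DXp_DXm replicate 1 (0.68) or with 1 transcript per gene.

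With offsets, 10 of the 22 calls in DXp held under every alternative run: Bub1, Cenpe, Ndc80, Spc25 and Nusap1 as higher, and Aurka, Kif20a, Kif2c, Cdc20 and Espl1 as lower. In DXp_DXm, 8 of the 19 did: Bub1, Cenpe, Cenpf, Nuf2 and Spc25 as higher, and Kif20a, Cdc20 and Espl1 as lower. In both deletions the higher ones have 40.5% to 44.5% exonic GC content and the lower ones 47.8% to 55.2%. As deposited 32 of 36 and 28 of 34 held. The comparisons of DXp and of DXp_DXm share the WT_EV libraries, so their likeness is not independent.

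Levels of different genes were compared only per kilobase of exon. In DXp the highest mean levels as deposited were those of Cks2 (185 CPM per kb) and Kif11 (172), and the lowest was that of Espl1 (1.74). In DXp_DXm Kif11 (157) and Cks2 (139) were highest and Espl1 (1.52) lowest. In WT_EV Cdc20 (85.3) and Cks2 (80.4) were highest and Kif18a (2.15) lowest. Cdc20 was at 3.06 CPM per kb in DXp_DXm, near the low end of the order. After offsets the order was another one. Cks2 (199.7 CPM per kb in DXp and 139.5 in DXp_DXm) and Ccna2 (129 and 111) were then highest and Espl1 (3.34 and 2.51) lowest in both deletions. In WT_EV Ccnb1 (97.9) and Ccna2 (77.4) were highest after offsets and Kif18a (4.55) lowest, with Cdc20 at 27.7.

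In the comparison of the deletions with each other none of the 40 genes was called, as deposited or with offsets (edgeR, adjusted p under 0.05). That result depends on the fit. Some of the 40 were called without the filter on low counts or with the other number in the titles as a block. Those counts are given in the last section. Base composition went with the change here too. Over the 40 genes the Pearson correlation of GC content with the log2 change was 0.68 as deposited (Spearman 0.66) and 0.24 with offsets (Spearman 0.20), against 0.20 and 0.012 over all genes. Over all genes 0.444% were called as deposited (0.28% higher and 0.163% lower) and 0.28% with offsets (0.157% higher and 0.124% lower). At an unadjusted p under 0.05 there were 11 of the 40 as deposited (27.5%, against 20.8% of all genes) and 9 with offsets (22.5%, against 19.1%), shares near those of all genes. All but Knl1 of these were higher in DXp_DXm. The higher ones were 10 as deposited (25%, against 12% of all genes) and 9 with offsets (22.5%, against 10.5%), and the lower ones 1 (2.5%, against 8.81%) and 0 (against 8.62%). DESeq2 called 4 of the 40 in each form, all as higher in DXp_DXm (10%), where it called 9.34% of all genes with an adjusted p as deposited (4.35% higher and 4.99% lower) and 8.14% with offsets (4.45% higher and 3.69% lower). Kif2c, with the values given above, was higher in DXp_DXm than in DXp by 1.40 as deposited (interval 0.68 to 2.12, adjusted p 0.0653) and 1.12 with offsets (interval 0.52 to 1.72, adjusted p 0.0898). Incenp differed by 1.34 (interval 0.59 to 2.09) and 1.03 with offsets (interval 0.41 to 1.66), and Plk1 by 1.16 (interval 0.56 to 1.75) and 0.84 (interval 0.21 to 1.47). Spc24 differed by 1.27 and 0.86, Aurkb by 1.16 and 0.77, Aurka by 1.001 and 0.62, Cenpa by 0.68 and 0.55, and Mki67 by 0.60 and 0.63. None of these passed the adjusted threshold in edgeR with the filter and group alone as the term. Each had both DXp_DXm libraries above both DXp libraries. As deposited 15 of the 40 had both DXp_DXm libraries above both DXp libraries, 37.5%, against 27.2% of all genes, and after offsets 18 did, 45%, against 25.2%. Both lay below both DXp libraries in 6 as deposited, 15%, against 23.2% of all genes, and in 3 after offsets, 7.5%, against 22.9%. Cdc20 differed by 0.09 (interval -0.53 to 0.71) and Espl1 by -0.19 (interval -0.85 to 0.47) as deposited, and any difference within those intervals remains possible.

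**Figure D4:**
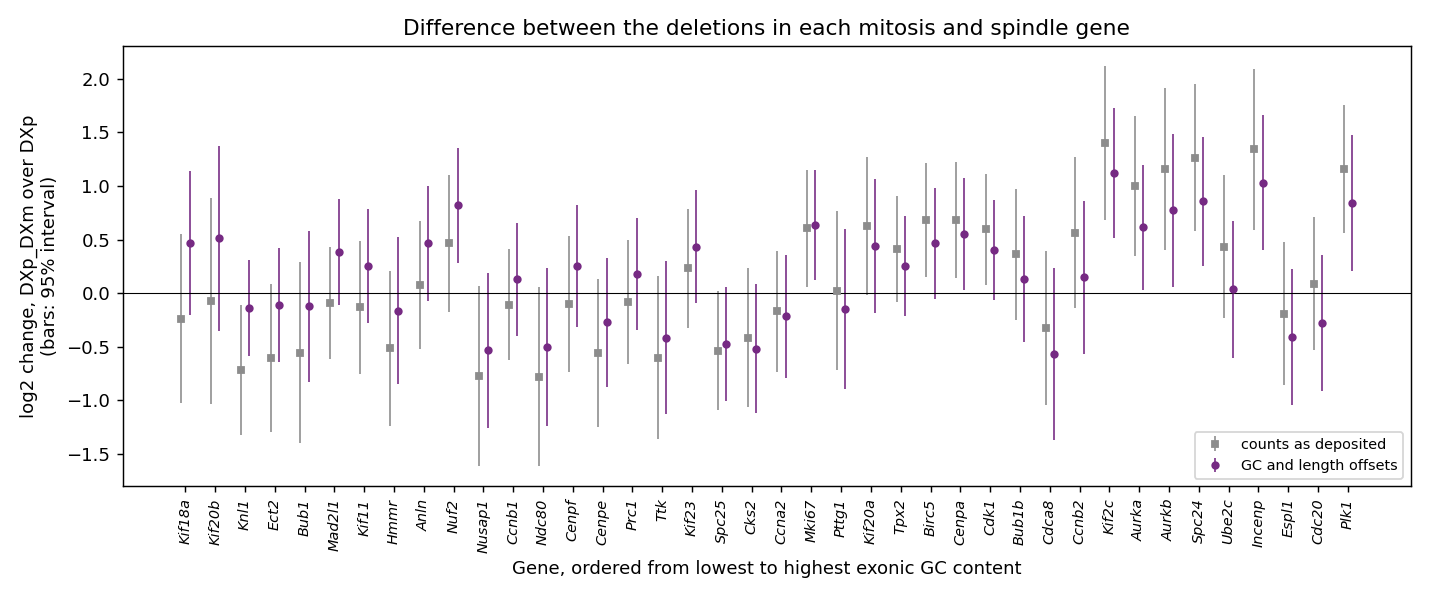
Log2 change of each of the 40 genes in DXp_DXm over DXp, from counts as deposited (gray squares) and with GC and length offsets (purple circles), with 95% intervals as bars and genes ordered by exonic GC content. Intervals of 8 genes, among them Kif2c, Incenp, Spc24 and Plk1, lie above 0 in both forms, and those of most other genes hold 0.

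The wild-type clones gave a second wild-type group for 13 of the genes, tested among 3302 shared genes in 9 libraries. The genes held for the clones lie on chromosomes 1, 2, 3 and X, which decides which 13 appear: 9 are on chromosome 2, 2 on chromosome 1 and 2 on chromosome 3. Scaling, CPM and the shares of all genes in these comparisons rest on those chromosomes, with 532 of the 3302 genes on the X. CPM here are relative to the shared genes, which held 2298180 to 7641676 counts a library, and are higher than those above for that reason. Rn7sk is not among the shared genes, and the part of library content in these comparisons was not tested. As deposited DXp had 5 higher (Bub1, Cenpf, Spc25, Knl1 and Ect2) and 3 lower (Aurka, Bub1b and Ube2c) than WT_clone, where 40.2% of the shared genes were called (15.2% higher and 25% lower). With offsets 1 was higher (Spc25) and 2 lower (Aurka and Ube2c), where 15.7% were called (5.69% higher and 10.1% lower). DXp_DXm had 4 higher (Bub1, Cenpf, Spc25 and Knl1) and 2 lower (Aurka and Ube2c) as deposited, where 25% were called (7.36% higher and 17.6% lower). With offsets it had none of the 13 called, where 5.57% were (1.91% higher and 3.66% lower), with 3 at an unadjusted p under 0.05 (23.1%, against 22.4% of the shared genes) and 1 higher and 1 lower by DESeq2 (7.69% each, against 5.73% and 8.37% of the shared genes with an adjusted p). Of the calls as deposited, those of Aurka, Bub1, Ube2c, Spc25 and Knl1 in DXp and that of Ube2c in DXp_DXm held under every alternative run, and the others did not. Without DXp replicate 1, 3 were higher in DXp, and without DXp_DXm replicate 2 none was higher in DXp_DXm.

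Spc25 was at 1889 and 1458 CPM in DXp and 978 and 1287 CPM in DXp_DXm, against 402 and 535 CPM in WT_clone and 262, 277 and 254 CPM in WT_EV. All deletion libraries lay above all wild-type libraries. Against WT_clone with offsets the log2 change of Spc25 was 1.35 in DXp (95% interval 0.74 to 1.95, adjusted p 0.0106), a call, and 0.82 in DXp_DXm (interval 0.22 to 1.42, adjusted p 0.101). Ube2c was at 45.2 and 42.9 CPM in DXp and 61.3 and 55.1 CPM in DXp_DXm, against 303 and 459 CPM in WT_clone and 597, 367 and 467 CPM in WT_EV. All deletion libraries lay below all wild-type libraries. With offsets Ube2c was lower than in WT_clone by a log2 change of -1.21 in DXp (adjusted p 0.0282) and differed by -1.21 in DXp_DXm (adjusted p 0.0532). Aurka was lower than in WT_clone with offsets in DXp (-1.10, adjusted p 0.0317) and not called in DXp_DXm (-0.51). None of the 3 calls with offsets in DXp held under every leave-one-out fit: without DXp replicate 1 none of the 13 was called, and the 2 lower calls were also lost without DXp replicate 2, WT_clone replicate 2 or WT_EV replicate 1. The Aurka call was lost without WT_EV replicate 2 as well.

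Genes that were higher in the deletions than in WT_EV were in part also higher in WT_clone than in WT_EV. With offsets Bub1, Nuf2, Nusap1 and Ect2 were higher and none of the 13 lower in WT_clone, where 27.8% of the shared genes were called (16% higher and 11.8% lower). As deposited 5 were higher (Bub1, Cenpf, Nuf2, Spc25 and Nusap1) and none lower, where 30.6% were called (15.3% higher and 15.4% lower), and 2 were higher without WT_clone replicate 2 or any 1 WT_EV library. Bub1 after offsets was at 2028 and 1250 CPM in DXp and 1047 and 1805 CPM in DXp_DXm, against 776 and 1271 CPM in WT_clone and 519, 478 and 450 CPM in WT_EV. The WT_clone libraries lay above all WT_EV libraries, and the 2 deletions and WT_clone overlapped. Against WT_clone, Bub1 differed by 0.68 in DXp (interval -0.11 to 1.47) and 0.48 in DXp_DXm (interval -0.31 to 1.26) with offsets, neither called. None of the 4 calls in WT_clone against WT_EV held without WT_EV replicate 1 or WT_EV replicate 2, and 1 did (Nuf2) without WT_clone replicate 2. Without WT_EV replicate 3, Nuf2 and Nusap1 were called.

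**Figure D5:**
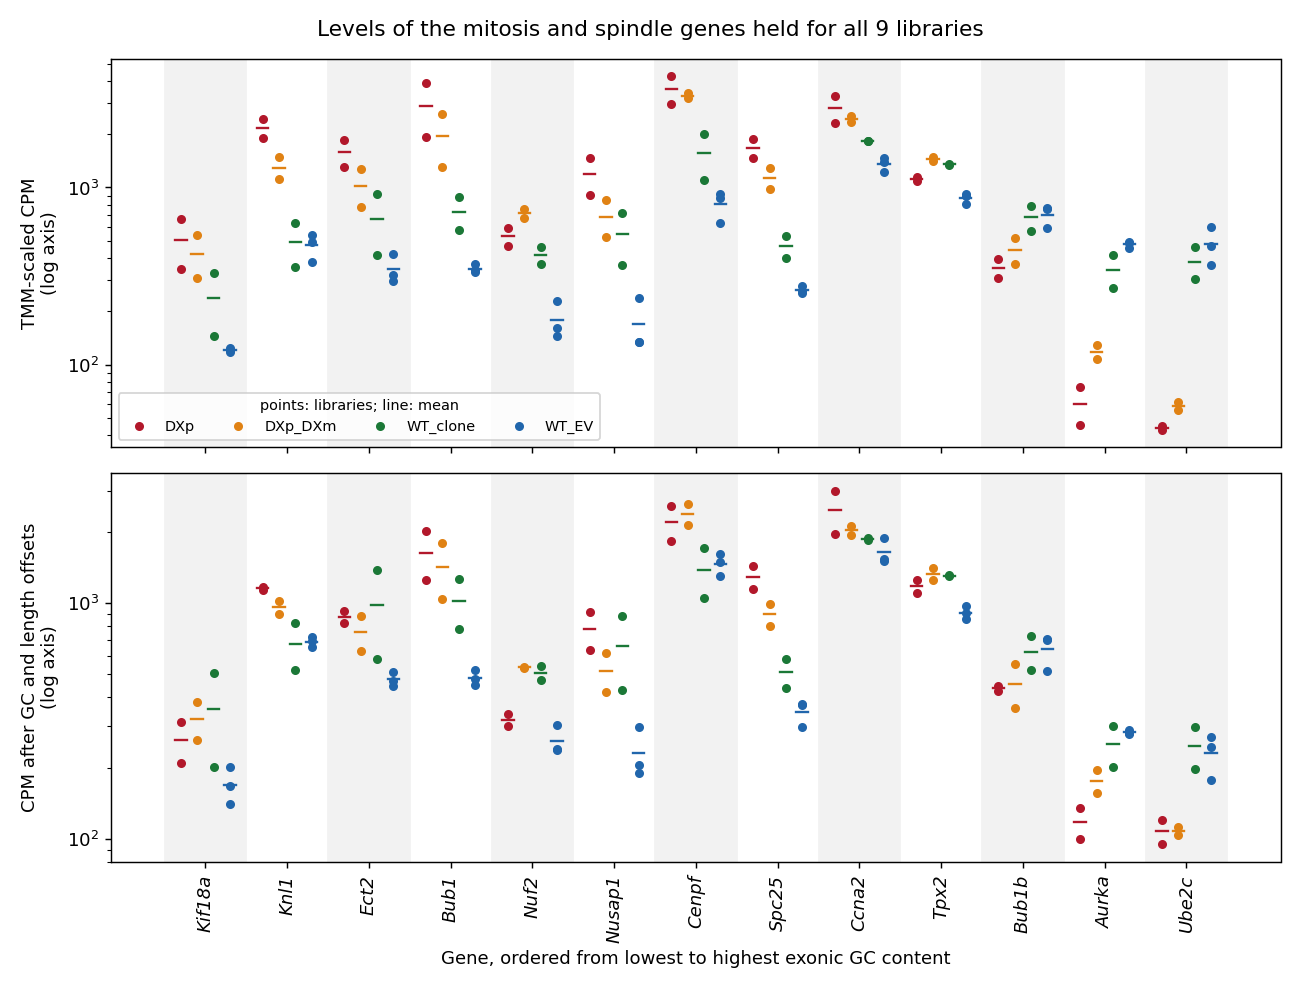
Level of the 13 genes held for all 9 libraries, relative to the shared genes, as TMM-scaled CPM (top) and as CPM after GC and length offsets (bottom), both on log axes. Points are libraries and lines group means for DXp, DXp_DXm and WT_clone (n = 2 each) and WT_EV (n = 3). For Spc25 both deletions lie above both wild-type groups in both panels, and for Bub1, Nuf2 and Nusap1 WT_clone lies above WT_EV.

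Related genes outside the list were counted for context. Of 107 other mitosis genes, 53 were higher and 36 lower in DXp than in WT_EV as deposited, and 26 higher and 31 lower with offsets, at a median log2 change of -0.17. In DXp_DXm the counts with offsets were 28 higher and 25 lower. Those of lowest p with offsets in DXp were Haspin, a histone H3 kinase (3.05 in DXp and 2.84 in DXp_DXm), Wee1, the inhibitory kinase of Cdk1 (2.27 and 1.65), Depdc1a (2.25 and 1.94) and Ube2s, the chain-extending E2 of the anaphase-promoting complex (-4.10 and -4.73). All 4 were called in both forms in both deletions.

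Of 16 regulators of mitotic transcription, 9 were higher and 6 lower as deposited in each deletion. With offsets 5 were higher and 5 lower in DXp, and 4 and 4 in DXp_DXm. Rbl1, the pocket protein p107 (2.36 in DXp and 1.73 in DXp_DXm), and E2f5 (2.50 and 1.63) were higher with offsets. So was Nfya, a subunit of the factor that binds CCAAT (1.43 and 0.66). E2f4, an E2F of the DREAM repressor, was lower with offsets (-1.53 and -1.47). In mean CPM as deposited, Nfyc was at 4.61 in DXp and 8.67 in DXp_DXm, against 37.1 in WT_EV. Mybl2 was at 14.8 and 13.45, against 198, and Foxm1 at 10.5 and 15.5, against 66.8. Of 25 G1 and S phase genes tested, 4 were higher and 16 lower with offsets in DXp, at a median of -1.25, and 3 higher and 11 lower in DXp_DXm. Tk1, a thymidine kinase (-3.20 in DXp and -2.64 in DXp_DXm), Mcm5, a helicase subunit (-2.82 and -2.41), Ccnd3 (-2.48 and -2.03) and Cdk4 (-2.29 and -2.15) were lower. Of 6 CDK inhibitors tested, 5 were higher with offsets in DXp and 3 in DXp_DXm, and none was lower. As deposited 2 were higher and 2 lower in each. Cdkn2a was at 1.18 and 0.579 CPM in DXp and 0.622 and 1.34 CPM in DXp_DXm, against 17.7, 15.9 and 20.6 CPM in WT_EV. Cdkn1b was at 465 and 281 CPM in DXp and 189 and 209.5 CPM in DXp_DXm, against 53.1, 74.8 and 59.5 CPM in WT_EV. Cdkn2c (5.36 in DXp and 4.75 in DXp_DXm), Cdkn2b (3.41 and 2.68) and Cdkn2d (2.26 and 2.65) were called with offsets in both deletions. Cdkn1a was called in DXp (1.38) and not in DXp_DXm (0.34). Levels of Cdkn2c and Cdkn2b as deposited were low. Cdkn2c was at 2.45 and 2.43 CPM in DXp, against 0.338, 1.10 and 0.360 CPM in WT_EV. Cdkn2b was at 2.45 and 6.56 CPM in DXp, against 3.55, 3.29 and 6.24 CPM in WT_EV, and these overlapped. Directions differed between the forms for Cdkn2d in DXp, lower as deposited (-1.10), and for Cdkn1a in DXp_DXm, lower as deposited (-0.88). The mean as deposited was also below WT_EV for Cdkn1a in DXp (62.6 against 71.4 CPM). In DXp_DXm it was below for Cdkn2b (3.44 against 4.36 CPM) and Cdkn2d (7.68 against 9.96 CPM). The backgrounds of these counts are the percentages of all genes called that are given above for each comparison.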

How the data were processed

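The authors deposited unnormalized read counts by gene in a table of 7 libraries and another of the 2 WT_clone libraries, of which 11512 genes were held here. Per the submitters' processing notes FastQC, STAR 2.7.9a and featureCounts 2.0.1 were used with GRCm38 (mm10). The labels name a stranded kit of either of 2 makes. No source used here says which library had which, whether RNA was selected for poly(A) or depleted of ribosomal RNA, what strand setting was used, or which annotation. Of the 55401 genes, 55141 had a symbol in GENCODE M21, the source of exons, GC content and length, and 1 incomplete line of the WT_clone table was left out.

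After filterByExpr and TMM scaling, counts were fitted with edgeR 4.0.16 (glmQLFit, robust; glmQLFTest) in R 4.3.3, with group as the term, and p-values were Benjamini-Hochberg adjusted over all genes tested. A call is an adjusted p under 0.05. For the offsets, log2 CPM (pseudocount 0.5) of each library was fitted over all genes with natural splines of exonic GC content (5 df) and log length (3 df). SEs and 95% intervals come from the fit. Levels are given per library in place of an SD. The biological coefficient of variation was 33.7%. DESeq2 1.42.0 was an alternative. Promoter windows came from RefSeq (GRCm38.p6). The fits were run on counts simulated from the fitted offsets, with the same dispersion for every gene. Such counts hold only the dependence that the offsets describe, so they cannot show what the offsets leave in place. The genes, the other lists and the sequences to show were chosen with earlier results of these data known. Named genes were all 40, and in each other list up to 4 of lowest p in DXp against WT_EV with offsets. Genes of those lists for which levels alone are given were added to these. No group had enough libraries for a test of outlying samples.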

Additional observations from a re-analysis of the deposited data

How the results depend on the processing

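Of 4608 gene results recomputed under an alternative, 4278 kept their call or stayed not called, 186 lost and 138 gained a call. Among the 4278, 133 values called in neither fit changed sign. Directions turned with a call in 6, all with offsets. Without the filter Mad2l1 in DXp was at 0.66 and Anln at 0.014. With GC content alone Cks2 in DXp_DXm was at -0.00043. With 1 transcript per gene, an alternative chosen after seeing the data, Birc5 was at 0.77 in DXp and 0.95 in DXp_DXm, and Cdca8 at 0.91 in DXp_DXm. The cause was not tested. Against WT_EV with offsets, 18 genes in DXp and 20 in DXp_DXm were higher without the filter, and 20 in DXp_DXm with GC content alone. For DXp_DXm against DXp, higher calls numbered 5 as deposited and 2 with offsets without the filter, and 4 and 4 with DESeq2. Against WT_clone, DXp as deposited had 8 higher with DESeq2 size factors and 8 with DESeq2, and with offsets 4 without the filter and 2 with DESeq2. DXp_DXm with offsets had 2 higher and 1 lower without the filter, 1 and 1 with DESeq2, and 1 lower with protein-coding genes alone or with 1 transcript. WT_clone against WT_EV had 2 higher as deposited with DESeq2 size factors, protein-coding genes alone or the replicate block, and with offsets 0 with protein-coding genes alone and 2 with the block. Leaving out 1 library gave, against WT_EV, 22 to 22 higher and 11 to 14 lower in DXp as deposited, 6 to 11 and 7 to 11 with offsets, 21 to 24 and 8 to 11 in DXp_DXm as deposited, and 6 to 15 and 3 to 6 with offsets. Between the deletions it gave 0 to 1 higher as deposited (1 without WT_EV replicate 3) and 0 to 0 with offsets. Against WT_clone it gave, in DXp, 3 to 6 higher and 2 to 3 lower as deposited and 0 to 3 and 0 to 2 with offsets, and in DXp_DXm 0 to 4 and 1 to 2 as deposited and 0 to 1 and 0 to 1 with offsets. In WT_clone against WT_EV it gave 2 to 6 higher as deposited and 0 to 5 with offsets. A lone library left in a group is assumed to vary like the other groups. By the replicate numbers, deviations of same-numbered libraries correlated at -0.24 between DXp and DXp_DXm and -0.091 between DXp and WT_EV. Between DXp_DXm and WT_EV the correlation was 0.092. The other number in the titles crosses the DXp libraries, so by it the signs of the correlations with DXp turn. Which number, if either, pairs samples is not known from the labels, and pairing was not tested. The replicate block otherwise kept the counts within 1.5 times, and the block by the other number in the titles, which crosses the DXp libraries, gave 6 higher and 1 lower as deposited and 2 higher with offsets for DXp_DXm against DXp.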
